A study of Homo sapiens with 12 samples.

Results

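Gene expression of the Z9 line of HepG2 was compared with that of the Empty line across all genes measured by RNA sequencing. HepG2, grown from a human liver tumour, is an established cell line that still secretes albumin, lipoproteins and other plasma proteins of the liver. The comparison rests on the 6 libraries of these 2 lines, out of 12 libraries of 4 lines, chosen by the line named in each library's label. The Empty line is labelled WT in genotype and had received an empty CRISPR construct. The Z9 line is labelled ZHX3-depleted and had received the construct sgZHX3-9. The other 2 lines, Z2 (sgZHX3-2) and Z5 (sgZHX3-5), are also labelled ZHX3-depleted. They entered the filter of genes, the scaling, the estimate of the spread between wells and the mean levels over 12 libraries. Z9 was also tested against each of them. All lines were transfected with lipofectamine 2000 and put under blasticidin from 48 h after transfection. Every line was grown in 3 wells, lettered a, b and c, and n = 3 for each mean and spread given here. Wells of 1 line are not independently made lines. The p-values therefore measure the spread between wells, and the construct and the history of a line cannot be told apart.

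ZHX3 encodes a protein with zinc fingers and homeodomains that acts as a transcriptional repressor and can pair with its relatives ZHX1 and ZHX2. It was found as a partner of ZHX1 and also binds NFYA, a subunit of the factor NF-Y, which binds CCAAT sequences in promoters. Promoters of cholesterol synthesis genes are a textbook case of NF-Y acting beside SREBP, the membrane-bound factor that is cut and sent to the nucleus when sterols are low. Hepatocytes use this system to set how much cholesterol they make and take up.

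Library totals of the 6 wells ran from 50864744 to 65428204 read counts, and 15289 genes passed a filter on low counts and were tested. Levels are in CPM, read counts brought to a common library size after TMM scaling, and a gene was called higher or lower in Z9 when its edgeR quasi-likelihood p, adjusted over all genes tested, was under 0.05. The first principal component of the 12 libraries (35.0% of variance) placed Empty wells at -39.4 to -29.0 and Z9 wells at 7.23 to 11.2. Z2 wells were at 8.81 to 17.65 and Z5 wells at 4.003 to 12.99. This component therefore set Empty apart from each of the other lines, and Z9 wells lay among the Z2 and Z5 wells. Between pairs of wells from the same line, chi-square per degree of freedom was 6.09 to 19.5, where counting noise alone gives a value near 1, and the common biological coefficient of variation was 0.0696. The liver transcription factor HNF4A was at 315, 316 and 333 CPM in Empty wells a, b and c and 320.0, 320.3 and 299 in Z9 wells, and 27 of 27 liver transcription factors on a list passed the filter, with 1 higher and 2 lower in Z9. The 1 higher call was lost without any 1 of the Empty, Z5 or Z9 wells or Z2 c, and with no filter beyond 1 count. Without Z2 b or in a fit of Z9 and Empty alone, 2 factors were higher and 5 lower. Another test, DESeq2, called 2 higher. Of markers of other cells, 3 of 12 fibroblast, 8 of 12 endothelial, 3 of 12 leukocyte, 5 of 12 kidney and 8 of 12 cholangiocyte genes passed the filter, and 5, 3, 4, 3 and 0 were at 0 in all 6 wells. The summed level of the 12 endothelial markers was 20.4 to 26.1 CPM in Empty wells and 24.4 to 29.5 CPM in Z9 wells. That of the 12 fibroblast markers was 46.1 to 48.2 and 47.1 to 56.6 CPM, and that of the 12 kidney markers 13.6 to 16.9 and 8.96 to 10.7 CPM. Summed levels were high for leukocyte markers (1819.7 to 1999 and 1591 to 1754 CPM), nearly all of it LYZ, which encodes lysozyme (means 1876 and 1632 CPM in Empty and Z9). LYZ was called lower in Z9 (-0.20, edgeR adjusted p = 0.0222), but not without Empty a, Empty b, Z9 a or Z9 b (up to 0.0981). Cholangiocyte markers summed to 1454 to 1575 CPM in Empty and 1561 to 1768 CPM in Z9 wells. The part of other cells in the results was not tested.

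ZHX3 mRNA was at 33, 32.7 and 33.5 CPM in Empty wells a, b and c and at 34.7, 33.5 and 34.8 CPM in Z9 wells. The groups touched, and the log2 fold change of 0.05 ± 0.05 (SE) was not called (edgeR adjusted p = 0.490). A gene-level count does not check a small insertion or deletion or the protein, so the label ZHX3-depleted is used here only as a name. Its relative ZHX2 was at 128, 138 and 141 CPM in Empty and 97.3, 94.5 and 90.8 CPM in Z9 wells. All 3 Z9 wells were below the Empty wells, and ZHX2 fell by 0.53 on the log2 scale (SE 0.06, edgeR adjusted p = 1.0e-05). ZHX1 was 0.06 ± 0.07 and was not called (edgeR adjusted p = 0.591). NFYA was at 83.4, 76.1 and 76.9 CPM in Empty and 67.7, 67 and 67.4 CPM in Z9 wells, again without overlap, and fell (-0.23 ± 0.05, edgeR adjusted p = 0.00483). The other subunits of NF-Y, NFYB (-0.11) and NFYC (-0.07), were not called.

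Between Z9 and Empty, 2941 of 15289 genes were called (19.2%), 1477 higher in Z9 (9.66%) and 1464 lower (9.58%). The counts given for each gene list are to be set beside these shares. All 3 Z9 wells lay above the Empty wells in 3065 genes (20% of genes tested) and below them in 3178 (20.8%), called or not. Most differences were small, with a median size of 0.37 on the log2 scale among called genes. A difference of at least 2-fold was called for 254 genes that were higher (1.66%) and 93 that were lower (0.608%). Against Z2, 5.17% of genes tested were called (1.96% higher in Z9, 3.21% lower), and against Z5 1.52% (0.432% and 1.09%). Without the library Empty a 1720 genes were called, and without Z9 b 1873. Unless a library or setting is named, the genes described below as rising or falling were called with each of the 12 libraries left out in turn and under the other settings tried. Signed values in brackets are log2 fold changes of Z9 minus Empty unless another line is named.

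**Figure D1:**
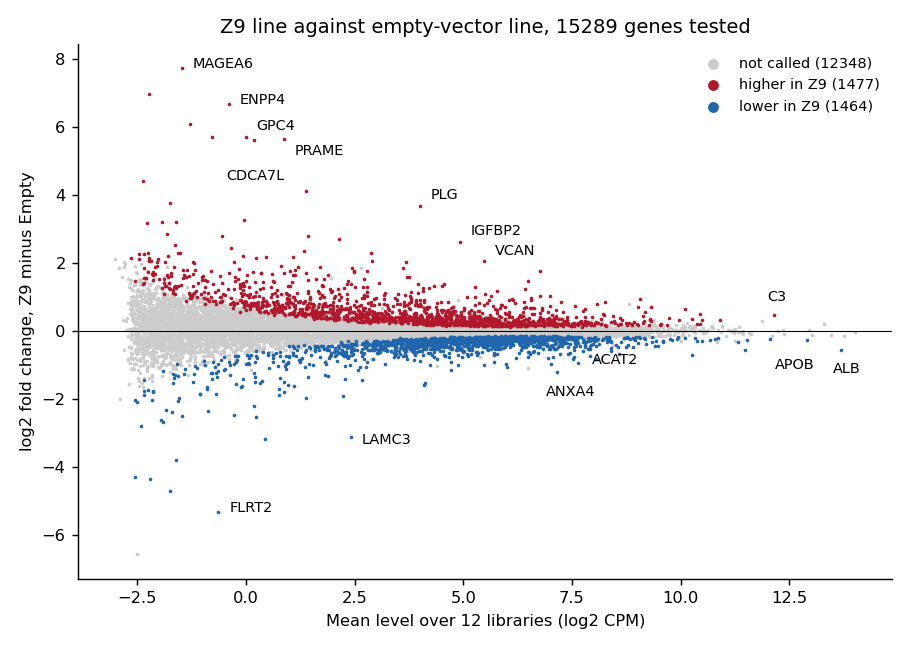
Difference between the lines for each gene tested. The x axis is the mean level over 12 libraries (log2 CPM), the y axis the log2 fold change of Z9 minus Empty, and colours mark the 1477 genes called higher and 1464 called lower. The points farthest from 0 lie at low levels, where counts are few.

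Cholesterol synthesis had the lowest median among the gene lists with at least 10 tested members. Without Empty c the order turned, with medians of -0.45 for cholesterol synthesis and -0.47 for G2 and mitosis. Of 23 genes from the first condensation of acetyl-CoA to cholesterol and its transport protein STARD4, all 23 were tested, 0 were higher in Z9 and 19 were lower, against 9.58% of all genes tested. The median log2 fold change was -0.47, against 0.0084 over all genes, and 22 of 23 values were below 0. With 1 library left out, 18 to 20 members were lower. ACAT2, which joins acetyl-CoA units at the start of the pathway, was at 209, 219 and 239 CPM in Empty and 129, 139 and 132 CPM in Z9 wells (-0.74 ± 0.07, edgeR adjusted p = 9.1e-07). No Z9 well reached the lowest Empty well. HMGCS1, which catalyses the next condensation, went from 358, 401 and 376 to 219, 263 and 281 CPM (-0.57 ± 0.08, edgeR adjusted p = 5.5e-05).

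In the middle of the pathway, where mevalonate is turned into isoprenoid units, MVK (-0.50), MVD (-0.68), IDI1 (-0.67) and FDPS (-0.64) fell, and PMVK was not called (0.09, edgeR adjusted p = 0.642). IDI1, which isomerises isopentenyl diphosphate, was at 154, 169 and 175 CPM in Empty and 92.5, 112 and 109 CPM in Z9 wells (edgeR adjusted p = 5.4e-06). Squalene synthesis and epoxidation by FDFT1 (-0.47) and SQLE (-0.50) fell as well. LSS, which closes the sterol rings, was lower by a call that 1 library could end (-0.36, edgeR adjusted p = 0.0472, up to 0.134 with 1 library left out, 0.0531 with the replicate letter as a block and 0.103 with no filter beyond 1 count). Among the enzymes that trim lanosterol, MSMO1 went from 271, 303 and 295 to 149, 189 and 189 CPM (-0.72 ± 0.08, edgeR adjusted p = 6.5e-06). The 4 members that were not called were PMVK, TM7SF2 (-0.11), DHCR7 (-0.24) and GGPS1 (-0.16), which makes a side product for protein prenylation. HSD17B7 (-0.65), NSDHL (-0.43), EBP (-0.46), SC5D (-0.53) and LBR (-0.24), which act on later sterols, fell too.

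Promoter sequences of 18 of the 23 genes were taken from RefSeq (GRCh38.p14), as the 250 bases before the annotated start, to show the sequence context of the pathway's genes, called or not. Where a gene had more than 1 annotated start, the first listed was used, as for IDI1 with 3. The motif CCAAT, searched on both strands (its other strand reads ATTGG), was in 13 of 18 of these promoters (72.2%) and at least 2 times in 9 of them. It was in 33.0% of the promoters of 27305 genes in the same table and at least 2 times in 10.0% of them. For the 11627 of these genes that were tested here, the shares were 34.8% and 12.6%. The motif TCACNCCAC, a form of the sterol regulatory element that SREBP binds, was in 0 of 18 and in 0.875% of all 27305. A match is a description of the letters and not evidence of binding. The 4 sequences below run 5′ to 3′ on the strand of the gene and end at the base before its start, with CCAAT and ATTGG in capitals. MSMO1, at chr4:165327419-165327668 on the plus strand, MVK, at chr12:109573544-109573793 on the plus strand, and FDPS, at chr1:155308616-155308865 on the plus strand, are shown because they hold several copies. CYP51A1, at chr7:92134478-92134727 on the minus strand, is shown because its mRNA fell (-0.44) and this stretch holds 0 copies. The stretches of IDI1 (-0.67) and LBR (-0.24), which also fell, and of PMVK (0.09) and GGPS1 (-0.16), not called, hold 0 copies too.
MSMO1: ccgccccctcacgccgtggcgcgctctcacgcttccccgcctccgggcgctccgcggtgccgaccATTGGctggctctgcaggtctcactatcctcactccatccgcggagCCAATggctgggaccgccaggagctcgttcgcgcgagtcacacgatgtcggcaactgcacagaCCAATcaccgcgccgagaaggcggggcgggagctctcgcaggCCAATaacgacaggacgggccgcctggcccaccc
MVK: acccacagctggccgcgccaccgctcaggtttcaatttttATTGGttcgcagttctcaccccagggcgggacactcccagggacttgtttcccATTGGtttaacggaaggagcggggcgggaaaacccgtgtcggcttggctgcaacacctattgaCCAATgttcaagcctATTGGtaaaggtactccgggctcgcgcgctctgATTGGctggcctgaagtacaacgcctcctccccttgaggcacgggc
FDPS: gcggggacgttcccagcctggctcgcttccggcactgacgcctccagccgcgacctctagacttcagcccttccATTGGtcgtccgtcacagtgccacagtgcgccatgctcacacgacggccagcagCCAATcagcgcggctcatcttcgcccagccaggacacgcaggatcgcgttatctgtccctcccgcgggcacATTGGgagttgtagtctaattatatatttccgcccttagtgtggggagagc
CYP51A1: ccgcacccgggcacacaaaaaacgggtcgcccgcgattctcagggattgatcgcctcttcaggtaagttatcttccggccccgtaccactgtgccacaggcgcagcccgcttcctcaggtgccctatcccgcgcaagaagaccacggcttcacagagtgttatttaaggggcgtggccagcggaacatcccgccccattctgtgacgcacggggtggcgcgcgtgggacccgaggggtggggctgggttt

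These genes also set Z9 apart from the other lines labelled ZHX3-depleted. Against Z5, 16 of the 23 were lower in Z9 and 0 higher, with a median of -0.47, where 1.09% of all genes were lower. Against Z2, 12 were lower and 0 higher, with a median of -0.33, where 3.21% of all genes were lower. ACAT2 averaged 186 CPM in Z2 and 210.0 CPM in Z5, against 133 CPM in Z9 (log2 fold changes -0.49 and -0.66, edgeR adjusted p = 0.00175 and 1.3e-04). IDI1 was -0.62 against Z2 and -0.70 against Z5 (edgeR adjusted p = 5.0e-04 and 1.3e-04). IDI1, ACAT2 and SC5D were lower than in both lines with each library left out. The count against Z2 was 6 without Z9 a and 4 in a fit of Z9 and Z2 alone, and the count against Z5 ran from 13 without Z5 b to 22 in a fit of Z9 and Z5 alone. The plot of cholesterol genes by well shows Z9 lowest for most members.

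**Figure D2:**
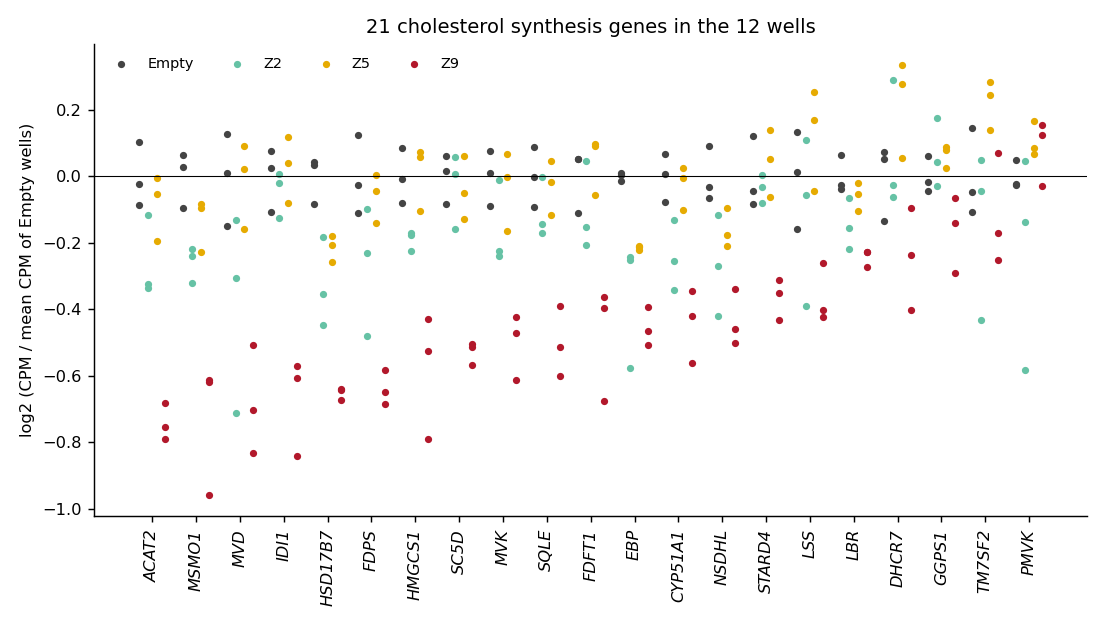
Levels of 21 cholesterol synthesis genes in the 12 wells. The y axis is the log2 ratio of a well's CPM to the mean of the 3 Empty wells, each point is a well, and genes are ordered by their fold change. ACAT2 lies below Empty in every Z9 well (129 to 139 CPM against 209 to 239 CPM), while PMVK and TM7SF2 overlap with Empty.

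Genes that control SREBP were called in both directions. Of 13 tested members of 14, 3 were higher and 1 lower, with a median of 0.045. SREBF2, the form that drives cholesterol genes, was at 362, 379 and 389 CPM in Empty and 339, 354 and 340.5 CPM in Z9 wells. The wells did not overlap, but the difference did not pass (-0.13 ± 0.06, edgeR adjusted p = 0.150). SREBF1 was 0.02 (edgeR adjusted p = 0.858). SCAP, which escorts SREBP to the Golgi, rose from 132, 128 and 126 to 147, 148 and 145 CPM (0.19 ± 0.05, edgeR adjusted p = 0.00854). INSIG1, which holds the SCAP complex back, had 5 counts over the 3 Empty wells and 48 over the Z9 wells, a ratio of 10.1 with a 95% interval of 4.05 to 32.6 that covers counting error only. Over their wells Z2 had 75 counts and Z5 66. INSIG1 was not called against Z2 (-0.72, edgeR adjusted p = 0.311) or Z5 (-0.46, edgeR adjusted p = 0.665). Whether the authors' annotation assigns all reads of INSIG1 was not tested.

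Fatty acid and triglyceride genes were called in both directions too. Of 28 tested members of 31, 9 were lower and 4 higher, with a median of -0.15, and 5 were lower without Empty c. Without Empty a, Empty b, Z9 a or Z9 b, 2 were higher. PNPLA3, a lipase of lipid droplets that SREBP induces, went from 26.5, 30.0 and 30.4 to 17, 18.6 and 17 CPM (-0.73 ± 0.08, edgeR adjusted p = 1.0e-05). ACLY, which makes cytosolic acetyl-CoA from citrate, went from 485, 537 and 549.7 to 352, 412 and 383 CPM (-0.45 ± 0.07, edgeR adjusted p = 2.7e-04). ELOVL5, an elongase of polyunsaturated fatty acids, rose (0.46, edgeR adjusted p = 3.1e-05). Both PNPLA3 (-0.39 and -0.60) and ACLY (-0.32 and -0.45) were also lower in Z9 than in Z2 and Z5 (edgeR adjusted p = 0.0231 and 0.00161 for PNPLA3, 0.0256 and 0.00408 for ACLY). Against Z2 neither passed without Z9 a (0.0837 for PNPLA3 and 0.0988 for ACLY) or in a fit of Z9 and Z2 alone (0.103 and 0.111).

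Of lipoprotein genes, 28 of 35 were tested, 9 were lower and 3 higher, with a median of -0.02. Without Z2 b 5 were higher, and without Z9 a 6 were lower. The apolipoprotein gene APOA4 was at 9.32, 9.90 and 9.91 CPM in Empty and 4.32, 4.39 and 4.46 CPM in Z9 wells and fell (-1.15 ± 0.10, edgeR adjusted p = 3.2e-07). C19orf80, the older symbol of ANGPTL8, whose product restrains lipoprotein lipase, went from 34.4, 38.6 and 42.8 to 17.3, 18.6 and 16.4 CPM (-1.15 ± 0.10, edgeR adjusted p = 9.3e-07). APOF, which modulates lipid exchange between lipoproteins, was at 17.1, 17.5 and 17.2 CPM in Empty and 11.2, 11.9 and 11.5 in Z9 wells, with means of 17.2 in Z2 and 17.3 in Z5. All 3 comparisons called it lower in Z9 (-0.58, -0.57 and -0.58 against Empty, Z2 and Z5, edgeR adjusted p = 1.4e-04, 0.00285 and 0.00240). APOB, the structural protein of very low density lipoprotein and one of the most abundant transcripts, was lower (-0.27, edgeR adjusted p = 0.00928), but not past the threshold without Z9 b (edgeR adjusted p = 0.0599).

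Genes of cell division were lower in Z9. Of 42 genes of G2 and mitosis, all tested, 0 were higher and 36 lower, with a median of -0.40 and 42 of 42 values below 0. Of 42 genes of S phase, all tested, 0 were higher and 23 lower, with a median of -0.34. MKI67, a marker of cycling cells, was at 74.5, 66.2 and 61.6 CPM in Empty and 48.1, 42.5 and 51.4 CPM in Z9 wells (-0.51 ± 0.08, edgeR adjusted p = 2.1e-04). AURKB, a mitotic kinase, went from 19.4, 17.7 and 17.6 to 13.2, 12.8 and 13.4 CPM (-0.47, edgeR adjusted p = 7.4e-04). UHRF1, which helps to copy DNA methylation behind the replication fork, went from 82.2, 67.3 and 53.1 to 31.3, 32.1 and 39.2 CPM (-0.98 ± 0.15, edgeR adjusted p = 0.00140). RRM2, the small subunit of ribonucleotide reductase, went from 106, 100.1 and 83.5 to 54.4, 61.5 and 70.8 CPM (-0.63, edgeR adjusted p = 6.4e-04). In these 4 genes Empty a was the highest well. Without Empty a the counts of lower genes were 18 for G2 and mitosis and 11 for S phase, and without Z9 b they were 20 and 12. Without Z9 a, 13 S phase genes were lower. Against Z2 and against Z5, 0 genes of either list were called by edgeR. At an unadjusted p under 0.05 there were 4 and 0 genes of G2 and mitosis and 4 and 3 of S phase, and DESeq2 called 1 and 0, and 2 and 0. A bulk count cannot tell fewer dividing cells from less of these mRNAs in each cell.

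Of 16 tested replication-dependent histone genes of 22, 4 were higher and 1 lower, and 1 was higher without Empty a and 2 without Empty b, Z9 b or Z9 c. HIST1H2BK went from 2.33, 2.04 and 1.84 to 3.85, 5.0 and 4.93 CPM (1.16 ± 0.14, edgeR adjusted p = 1.7e-05). Histone genes resemble one another, so that reads may be split among copies. Of 28 p53 targets, all tested, 2 were higher and 0 lower, CDKN1A (0.26) and BBC3 (0.46), and neither was past the threshold without Empty a (edgeR adjusted p = 0.0509 and 0.0619) or without Z9 b (0.0928 and 0.0585). Without Z2 b 5 were higher. The 2 calls of the main fit were 7.14% of the list, against 19.2% of all genes tested called in either direction.

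**Figure D3:**
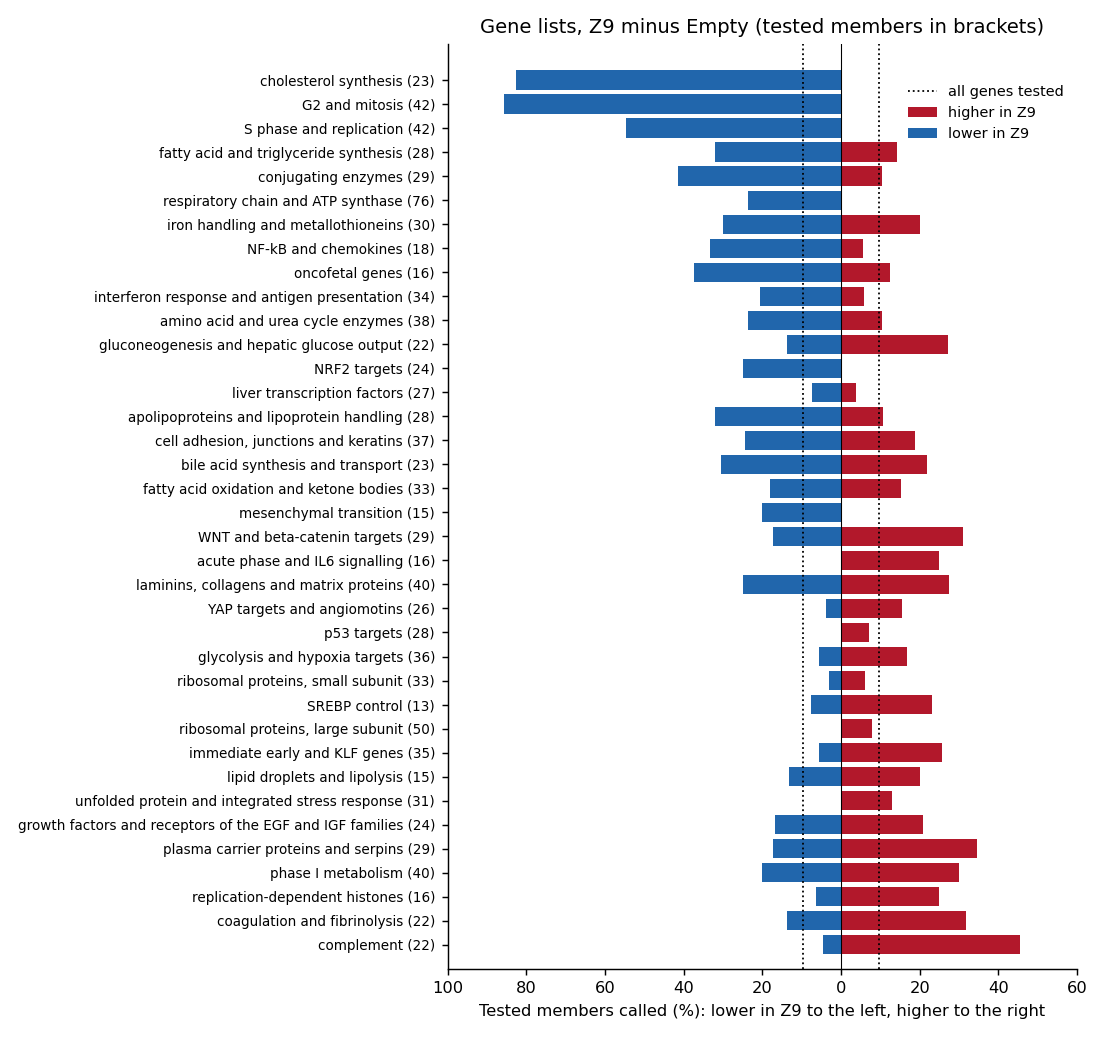
Share of tested members called in each list with at least 10 tested members. Bars to the left are lower in Z9 and bars to the right higher, dotted lines mark the shares over all genes tested (9.58% lower, 9.66% higher), and lists are ordered by median log2 fold change. Cholesterol synthesis and both cell division lists at the top have bars to the left only.

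Among protein-coding genes with a mean log2 CPM of at least 1 and wells that did not overlap, the largest rises in Z9 were in CDCA7L, PLG, APCDD1, NDUFA4L2 and IGFBP2. CDCA7L, which encodes a partner of MYC, had 27 counts over the Empty wells and 458 over the Z9 wells, a ratio of 17.9 with a 95% counting interval of 12.1 to 27.4. PLG, which encodes plasminogen, was at 1.69, 1.13 and 2.17 CPM in Empty and 22.4, 21.4 and 21.2 CPM in Z9 wells (3.69 ± 0.14, edgeR adjusted p = 1.1e-10). APCDD1, an inhibitor of WNT signalling, was at 0.549, 0.329 and 0.551 and 3.23, 3.49 and 3.22 CPM (2.79, edgeR adjusted p = 6.7e-09). The rule that picked these genes required that their Z9 and Empty wells did not overlap.

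IGFBP2, which binds insulin-like growth factors, was at 5.95, 7.38 and 6.16 CPM in Empty and 29.6, 44.6 and 45.3 CPM in Z9 wells (2.61 ± 0.17, edgeR adjusted p = 1.2e-06). Well a of Z9 was lower than b and c, and still well above Empty. Of 24 tested EGF and IGF family genes of 33, 5 were higher and 4 lower, and 2 were lower without Empty b. The EGF receptor ligands EREG (2.36 ± 0.21) and AREG (1.26 ± 0.10) rose (edgeR adjusted p = 5.2e-07 and 1.2e-07). VCAN, a large proteoglycan of the matrix, was at 12.2, 13.2 and 13.6 CPM in Empty and 56.5, 54.7 and 53.1 CPM in Z9 wells (2.07 ± 0.06, edgeR adjusted p = 5.0e-13). NDUFA4L2, a mitochondrial protein induced by hypoxia (2.71), the phospholipase PLA2G16 (2.30), the trypsin inhibitor SPINK1 (2.18) and the actin-binding protein ABLIM3 (2.08) completed the 10 largest such rises. Against Z2 and against Z5, 0 of these 10 genes were called by edgeR, with 2 at an unadjusted p under 0.05 in each comparison and 0 and 1 called by DESeq2.

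The 10 largest falls by the same rule were led by LAMC3, a laminin chain, at 13.4, 14.8 and 16.9 CPM in Empty and 1.99, 1.45 and 1.84 CPM in Z9 wells (-3.10 ± 0.14, edgeR adjusted p = 1.5e-10). GSTA1, an alpha-class glutathione transferase, was at 9.38, 4.61 and 5.96 and 1.77, 1.75 and 1.57 CPM (-1.96 ± 0.23, edgeR adjusted p = 2.0e-05), and its reads may be shared with near-identical genes of its class. CHST9, a sulfotransferase (-1.89), KITLG, the ligand of KIT (-1.61), the Nogo receptor relative RTN4RL2 (-1.58), HOXD1 (-1.52), the flippase ATP10D (-1.42), ANXA13 (-1.36) and the zinc-finger factor ZIC2 (-1.31) followed. HAVCR1, a phosphatidylserine receptor best known from injured kidney, was at 5.61, 7.95 and 7.72 CPM in Empty and 2.54, 3.04 and 2.53 CPM in Z9 wells (-1.39, edgeR adjusted p = 8.4e-06). HAVCR1 alone of these 10 genes was also called lower than in both Z2 (-0.77) and Z5 (-0.82) (edgeR adjusted p = 0.0184 and 0.0175). These calls did not hold without Z9 a or Z5 b, among other libraries (up to 0.0780 and 0.126).

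**Figure D4:**
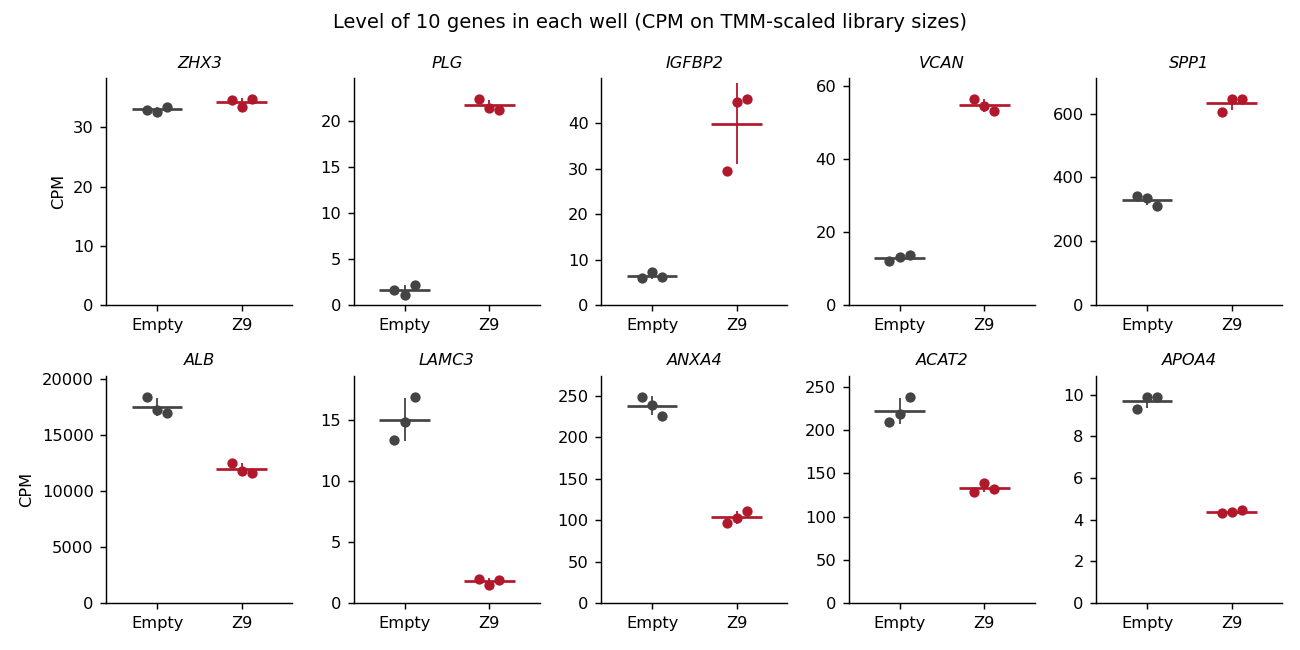
Levels of 10 genes in each well. The y axis is CPM from 0, points are wells a to c, the horizontal line is the mean and the vertical line ± 1 SD (n = 3). ZHX3 wells overlap between the lines (means 33.0 and 34.3 CPM), and the wells of the other 9 genes do not overlap. The rule that picked PLG, IGFBP2, VCAN, LAMC3 and ALB required wells that did not overlap.

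Plasma proteins changed in both directions. ALB, which encodes albumin and was the most abundant transcript called, was at 18437, 17208 and 16944 CPM in Empty and 12541, 11763 and 11618 CPM in Z9 wells, and fell (-0.55 ± 0.07, edgeR adjusted p = 1.6e-05). AFP, the fetal counterpart of albumin, was -0.11 ± 0.07 and did not pass (edgeR adjusted p = 0.298). Of 29 tested carrier proteins and serpins of 31, 10 were higher and 5 lower, with a median of 0.11. VTN, which encodes vitronectin, rose from 195, 196 and 217 to 368, 378 and 355 CPM (0.86 ± 0.06, edgeR adjusted p = 4.0e-08). SERPINA3, an inhibitor of chymotrypsin-like proteases, rose (0.65, edgeR adjusted p = 1.5e-05), as did AMBP (0.33) and AGT, the precursor of angiotensin (0.33). HPX, which carries heme, fell from 19 ± 2.08 to 12.1 ± 1.61 CPM (SD, -0.65, edgeR adjusted p = 0.00458).

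Complement had the highest median of the lists with at least 10 tested members in the main fit, but not with each library left out. Of 22 tested members of 27, 10 were higher and 1 lower, with a median of 0.24, and 7 were higher without Empty a. Without Z2 b 3 were lower. With 1 library left out, the median of complement ran from 0.170 to 0.248. That of coagulation and fibrinolysis ran from 0.173 to 0.221, and that of replication-dependent histones from 0.0191 to 0.262. C3, the central component, was at 3396, 3534 and 3669 CPM in Empty and 4714, 5120.4 and 4824 CPM in Z9 wells (0.47 ± 0.07, edgeR adjusted p = 2.0e-04). C8B, a part of the membrane attack complex, went from 4.79, 4.78 and 5.74 to 11.2, 11.8 and 10.7 CPM (1.13 ± 0.09, edgeR adjusted p = 1.4e-07). MASP1 (0.56), CFB (0.39) and the regulators CLU (0.45) and CD55 (0.38) rose, and C1S fell (-0.39). The genes that rose encode the core, the lectin and alternative pathways, and regulators of the cascade.

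Of 22 tested coagulation and fibrinolysis genes of 23, 7 were higher and 3 lower, with a median of 0.19. The 3 fibrinogen chains all rose. FGA was at 1027, 1022 and 1213 CPM in Empty and 1462, 1619 and 1519 CPM in Z9 wells (0.50 ± 0.07), FGB changed by 0.49 ± 0.05 and FGG by 0.36 ± 0.06 (edgeR adjusted p = 5.6e-05, 6.5e-06 and 4.8e-04). Mean CPM of FGB was 369 in Z9, against 263 for Empty, 288 for Z2 and 294 for Z5, and FGB was higher in Z9 than in Z2 (0.36) and Z5 (0.32) (edgeR adjusted p = 0.00285 and 0.00585, with 0.0676 against Z5 without Z5 c). Of 16 tested acute phase genes of 19, 4 were higher and 0 lower, and 2 were higher without Empty a. The 4 included the hepatokine FGL1 (0.69) and haptoglobin, HP (0.57) (edgeR adjusted p = 1.8e-08 and 7.8e-05).

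In glucose metabolism, 6 of 22 tested genes of glucose output were higher and 3 lower, with a median of -0.06, and 1 was lower without Empty a. G6PC, which releases glucose from its phosphate, went from 2.26, 2.34 and 2.07 to 7.56, 8.06 and 7.30 CPM (1.78 ± 0.19, edgeR adjusted p = 1.4e-05). PCK1, the other control point of gluconeogenesis, was at 10.1, 9.64 and 8.79 CPM in Empty and 12.8, 17 and 22.2 CPM in Z9 wells (0.87 ± 0.19, edgeR adjusted p = 0.00948), with a wider spread among Z9 wells. PPARGC1A, a coactivator of this programme, rose (0.55, edgeR adjusted p = 5.5e-04), and SLC2A2, the liver glucose transporter, fell (-0.30). Of 36 glycolysis and hypoxia genes, all tested, 6 were higher and 2 lower, and 5 were lower without Z2 b or in a fit of Z9 and Empty alone. HK1 went from 7.10, 7.0 and 6.14 to 13.9, 14.4 and 13.9 CPM (1.06) and EGLN3, an oxygen sensor that hypoxia itself induces, from 37.8, 46.8 and 39.9 to 86.6, 102 and 109 CPM (1.26) (edgeR adjusted p = 1.4e-07 and 4.5e-05).

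Bile acid genes split. Of 23 tested members of 25, 5 were higher and 7 lower. CYP7A1, the rate-limiting enzyme of bile acid synthesis, was low in both lines, at 0.353, 0.451 and 0.613 CPM in Empty and 1.31, 1.24 and 1.64 CPM in Z9 wells (1.54 ± 0.23, edgeR adjusted p = 1.6e-04). BAAT, which conjugates bile acids, rose from 9.32, 11 and 8.24 to 20.1, 23.2 and 27.7 CPM (1.32, edgeR adjusted p = 5.0e-06). The bile acid-induced repressor NR0B2, or SHP, fell from 98.7, 101 and 103 to 67.1, 73.3 and 66.3 CPM (-0.55 ± 0.09, edgeR adjusted p = 3.4e-04). The exporters SLC51B (-0.73) and ABCC3 (-0.44) fell, and the phospholipid flippase ABCB4 rose (0.64).

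Of 40 tested phase I enzymes of 53, 12 were higher and 8 lower, and 5 were lower without Empty a, Empty c or Z9 c. CYP2J2, which makes epoxides of arachidonic acid, rose (1.31 ± 0.10) and ALDH8A1, an aldehyde dehydrogenase of tryptophan breakdown, fell (-2.53 ± 0.24) (edgeR adjusted p = 1.4e-07 and 1.3e-06). CES1, a liver carboxylesterase (-0.78), and AKR1B10, an aldo-keto reductase raised in hepatoma (-0.98), fell. Conjugating enzymes leaned lower, with 12 of 29 tested members of 42 lower and 3 higher and a median of -0.14. Without Empty a, Z9 b or Z9 c 1 was higher, and in a fit of Z9 and Empty alone 5 were. UGT2B7 (-0.75) and UGT2A3 (-0.51) fell and UGT2B4 rose (1.18), and reads of these related genes may be split among them. Of 30 tested genes of iron handling and metallothioneins of 33, 6 were higher and 9 lower, and 3 were higher without Z9 b. TFR2, an iron sensor of hepatocytes, rose from 85.3, 81 and 93.5 to 136, 141 and 125 CPM (0.63, edgeR adjusted p = 5.8e-05), and the metalloreductase STEAP2 rose (0.91).

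WNT inhibitors changed in both directions. Of 29 tested WNT genes of 33, 9 were higher and 5 lower. NOTUM, a secreted inhibitor of WNT ligands, rose from 385, 388 and 368 to 595, 641 and 622 CPM (0.70 ± 0.06, edgeR adjusted p = 2.6e-07). DKK1, another inhibitor, fell from 172, 212 and 158 to 77.5, 94.6 and 109 CPM (-0.95 ± 0.16, edgeR adjusted p = 0.00255). FZD4, a WNT receptor, was at 107, 108 and 103 CPM in Empty and 68.9, 68.6 and 69.4 CPM in Z9 wells, with means of 90.9 in Z2 and 97.3 in Z5. It was lower in Z9 than in Empty (-0.62), Z2 (-0.40) and Z5 (-0.50) (edgeR adjusted p = 5.4e-07, 0.00158 and 2.1e-04).

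Matrix genes were among the most often called, with 11 of 40 tested members of 45 higher and 10 lower, and 6 lower without Empty b or Z9 a. SPP1, which encodes osteopontin, rose from 342, 337 and 312 to 606, 646 and 644 CPM (0.94 ± 0.07, edgeR adjusted p = 9.9e-08). SPARC (0.83) and TIMP3, an inhibitor of matrix proteases (0.81), rose, and GPC3, a proteoglycan used as a hepatoma marker, fell (-0.26). Of 37 tested adhesion genes of 41, 7 were higher and 9 lower. PTGFRN, a partner of tetraspanins, went from 37.2, 37.2 and 38.1 to 20.2, 19.8 and 19.8 CPM (-0.91, edgeR adjusted p = 4.0e-08). CDH1, which encodes E-cadherin (-0.52), fell, and CLDN6 rose (0.76). ANXA4, an annexin listed as a marker of bile duct cells, fell from 249, 239 and 226 to 96, 102 and 111 CPM (-1.20 ± 0.07, edgeR adjusted p = 1.7e-09), while SPP1 of the same list rose.

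Of 16 tested oncofetal genes of 18, 6 were lower and 2 higher, and 4 were higher without Z2 a, with the replicate letter as a block or in a fit of Z9 and Empty alone. LIN28B, which blocks maturation of let-7, went from 135, 124 and 119.9 to 79.3, 72.5 and 71.9 CPM (-0.76 ± 0.07), and HMGA2, a let-7 target, from 287, 274 and 264 to 202, 205 and 209 CPM (-0.42 ± 0.05) (edgeR adjusted p = 1.3e-06 and 9.9e-06). PEG10, an imprinted gene derived from a retrotransposon, fell (-0.32). Among YAP targets, 4 of 26 tested members of 29 were higher and 1 lower. Without Empty a or Z9 b 2 were higher, and without Z2 b or Z9 c 2 were lower. NT5E, which makes adenosine outside the cell, rose from 52.5, 59.7 and 70.2 to 126, 129 and 122 CPM (1.04), and the angiomotin AMOT fell from 7.20, 5.44 and 5.35 to 2.53, 2.73 and 2.11 CPM (-1.28) (edgeR adjusted p = 6.8e-08 and 2.6e-05). Of 35 tested immediate early and KLF genes of 36, 9 were higher and 2 lower, with 4 lower without Empty c and 1 without Empty b or Z9 a. KLF9, a factor induced by glucocorticoids, went from 1.28, 0.988 and 1.24 to 3.37, 3.51 and 3.29 CPM (1.54 ± 0.14, edgeR adjusted p = 7.1e-07).

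Of 76 respiratory chain and ATP synthase genes, all tested, 0 were higher and 18 lower, with a median of -0.12 and 66 values below 0, and 8 were lower without Empty a, 9 without Z9 a, 11 without Empty b or Z9 b and 29 without Z2 b. CYC1, which encodes cytochrome c1, was at 242, 276 and 263 CPM in Empty and 178, 177 and 169 CPM in Z9 wells (-0.58 ± 0.07, edgeR adjusted p = 1.5e-05). Of 50 tested large-subunit ribosomal protein genes 4 were higher and 0 lower, and of 33 small-subunit ones 2 were higher and 1 lower, with 1 and 0 higher without Empty a and 11 and 6 without Z2 b. In either direction 8.0% and 9.09% of these members were called in the main fit, against 19.2% of all genes tested. RPL22L1, a paralog of RPL22, rose from 54.8, 51.1 and 54.1 to 81.4, 77.3 and 72.7 CPM (0.53 ± 0.08, edgeR adjusted p = 2.0e-04). Of 31 tested stress response genes of 32, 4 were higher and 0 lower, with VLDLR (0.75) and DNAJB9 (0.36) among them, and 2 were higher without Empty a or Z9 b. The 4 calls were 12.9% of the tested members, against 19.2% of all genes tested called in either direction. Of 24 tested NRF2 targets of 26, 0 were higher and 6 lower, and 2 were lower without Empty a. NQO1, a quinone reductase, fell (-0.38, edgeR adjusted p = 0.00159). Of 18 tested NF-kB genes and chemokines of 25, 6 were lower and 1 higher, a higher call that was lost without any 1 of the Empty wells, Z9 a or Z9 b. CXCL8 (-0.91) and NFKB2 (-0.30) fell. Of 34 tested interferon and antigen presentation genes of 38, 2 were higher and 7 lower, and 3 were lower without Empty a or any 1 of the Z9 wells and 4 without Empty b, Z5 a or Z5 c. The 2 higher calls became 5 without Z2 b and 4 without Z2 a.

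Of 33 tested genes of fatty acid oxidation 5 were higher and 6 lower, with 1 higher without Empty a or Z9 b, 2 without Empty b or Z9 a and 3 without Empty c. Of 38 tested amino acid and urea cycle enzymes 4 were higher and 9 lower, with 2 higher without Empty a, 5 lower without Z9 b or Z9 c and 14 lower without Z2 b. Of 15 tested genes of mesenchymal transition 0 were higher and 3 lower, and of 15 of lipid droplets 3 were higher and 2 lower. Of the lipid droplet genes 1 was lower without Empty b, Empty c, Z5 b, Z5 c or any 1 of the Z9 wells.

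Some genes were close to absent in 1 line. By a rule set after the values were seen, at most 10 counts over the 3 wells of 1 line and at least 40 over those of the other, 14 tested genes were near absent in Empty and 5 in Z9. PRAME, a cancer-testis gene, had 3, 0 and 3 counts in Empty wells and 94, 112 and 105 in Z9 wells, a ratio of 54.7 with a 95% interval of 24.8 to 150. GPC4, a cell-surface glypican, had 2, 1 and 3 counts in Empty and 103, 111 and 109 in Z9 wells (ratio 56.8, 25.8 to 156). MAGEA3 had 4 counts in Empty and 206 in Z9, and MAGEA6 0 and 80, at least 28.1-fold higher against a floor of 3 counts over the group. The 2 genes are near-identical neighbours whose reads may be split. ENPP4 had 1 count in Empty and 136 in Z9, a ratio of 143 (25.3 to 5707). All these intervals cover counting error only. In the other direction FLRT2, a guidance and adhesion protein, had 143, 97 and 144 counts in Empty and 2, 2 and 5 in Z9 wells, a ratio of 40.5 (21.1 to 89.1), and S100A9 had 142 and 5. Z2 and Z5 had 327 and 544 counts of PRAME and 7 and 7 of FLRT2 over their wells. GPC4 had 54 counts in Z2 and 256 in Z5, and was higher in Z9 than in Z2 (2.49, edgeR adjusted p = 4.1e-05).

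Few genes separated Z9 from each of the other 3 lines. By edgeR, 28 genes were higher in Z9 than in each (0.183% of genes tested) and 74 lower (0.484%). Of the 74, 12 were cholesterol synthesis genes and 5 fatty acid and triglyceride genes. In fits of each pair alone the counts were 1 and 18, and without Z9 a they were 4 and 18. Of the original 28 higher genes 0 remained without Z5 c, and of the 74 lower genes 24. Among the higher genes PER1, a circadian repressor, was at 18.4, 18.6 and 16.9 CPM in Empty and 24.6, 22.6 and 23.7 CPM in Z9 wells, with means of 17.8 in Z2 and 18 in Z5 (0.40, 0.41 and 0.39 against Empty, Z2 and Z5, edgeR adjusted p = 0.00187, 0.0136 and 0.0195). AOC2, an amine oxidase (0.57, 0.59 and 0.54), the lipid transporter ABCA3 (0.79, 0.49 and 0.57) and RBM23, an RNA-binding protein (0.82, 0.66 and 0.91), were also higher. Among the lower ones MAP3K6, a stress kinase (-0.64, -0.56 and -0.53), stood beside IDI1, APOF and HAVCR1. Of PER1, AOC2, ABCA3, RBM23 and MAP3K6, none kept the calls against both Z2 and Z5 with each library left out.

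Called genes differed by type and level. Of 13357 protein-coding genes tested, 1332 were higher and 1422 lower. Of 935 long noncoding RNA genes, 87 were higher and 18 lower, with a median of 0.14, and 39 and 14 were called without Empty a and 51 and 10 without Z9 b. Of 359 transcribed pseudogenes, 27 were higher and 8 lower. Long noncoding RNA genes were low, at a median of 1.00 CPM against 24.0 CPM for protein-coding ones. With all genes tested cut into 4 equal groups by mean level, in the lowest group 257 of 2481 protein-coding genes were higher and 108 lower, and 41 of 648 long noncoding ones were higher and 11 lower. In the second lowest group 415 of 3336 protein-coding genes were higher and 351 lower, and 39 of 237 long noncoding ones were higher and 6 lower. In the highest group 334 of 3789 protein-coding genes were higher and 505 lower. Whether level accounts for the difference between gene types was not tested. Whether reads of noncoding genes come from overlapping genes was not tested, since the strand setting is not given in the sources used here.

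**Figure D5:**
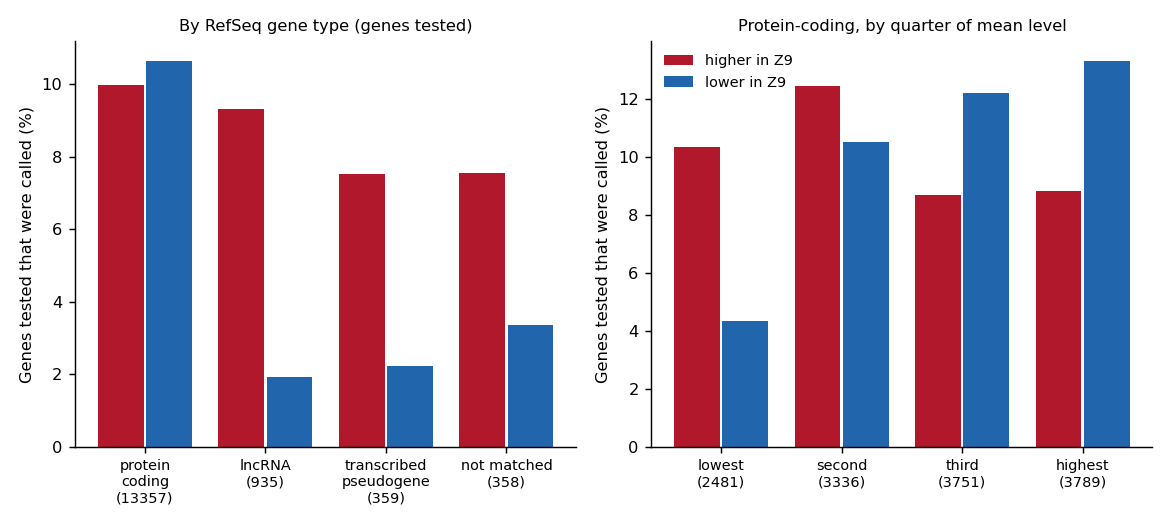
Share of genes tested that were called in Z9 minus Empty, by gene type (left) and, for protein-coding genes, by 4 equal groups of mean level over all genes tested (right). Bars start at 0, red is higher in Z9 and blue lower, and numbers in brackets are genes tested. Lower calls are 4.35% in the lowest group and 13.3% in the highest.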

How the data were processed

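RNA was taken from 3 wells of each of 4 HepG2 lines, with a NucleoSpin kit and NEBNext Ultra II libraries per the labels' protocols. The deposited values are raw read counts per gene, not normalized. The submitters' processing notes name STAR, featureCounts and the build hg38, without versions. Neither the gene annotation nor the strand setting is given in the sources used here.

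From the counts, edgeR 4.0.16 (R 4.3.3, limma 3.58.1) fitted 4 line means over 12 libraries with TMM scaling, its default expression filter by line and the robust quasi-likelihood test. The fit left 8 residual degrees of freedom. P-values were adjusted by Benjamini-Hochberg over 15289 genes, with a threshold of 0.05, and ± is the SE of a log2 fold change. Library totals of 50864744 to 65428204 counts in the 6 wells compared limit precision for genes with few counts, and intervals at 95% cover counting error only. Data were simulated for Z9 minus Empty with 15144 genes and 50 changed genes per size. Each changed gene had at least 50 expected counts per library. The test recovered 58% of changes of 1.25-fold, 88% of those of 1.5-fold and 98% of those of 2-fold. Of its 182 calls, 6.04% were false. Counts were drawn independently, without shifts shared by many genes of a well. The recovery does not cover genes with fewer counts, and 6.04% is not the false share of the 2941 calls. DESeq2 1.42.0, other filters and scalings, fits of 2 lines, a block by well letter and leaving out each library were alternatives. Gene types and positions came from RefSeq on GRCh38.p14, matched by symbol for 23758 genes and by synonym for 1562 of 26485, with 1165 unmatched.

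The comparison and the gene lists were chosen with earlier results of these data known. Named genes were ZHX1 to ZHX3, the 10 largest rises and 10 largest falls among called protein-coding genes with a mean log2 CPM of at least 1 and no overlap between wells, the 5 most abundant in each direction, 6 in each direction that separated Z9 from every line, and up to 3 called members per list by adjusted p. Genes named beyond this rule, among them other members of the lists, were chosen after their values were seen. Some genes the rule gave stand only in the counts of their lists, and values of some genes are not reported here.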

Additional observations from a re-analysis of the deposited data

How the results depend on the processing

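The number of genes called in Z9 minus Empty was 2941 and lay between 1720 (without Empty a) and 4048 (without Z2 b) when 1 library was left out, with 1873 without Z9 b. DESeq2 called 3279 and a fit of the 6 libraries alone 3843. At a minimum of 2-fold 347 remained. The 790 calls against Z2 became 1526 with DESeq2, 32 in a fit of the 6 libraries and 22 at 2-fold, and ran from 75 (without Z9 b) to 2399 (without Z2 a) with 1 library left out. The 232 calls against Z5 became 504, 664 and 5, and ran from 37 (without Z5 c) to 653 (without Z2 b). Other scalings and filters moved these counts by less than 1.5 times. ZHX3 stayed between 0.04 and 0.07 on the log2 scale and under no alternative run was it past the threshold. With the replicate letter as a block, 3407, 1512 and 488 genes were called against Empty, Z2 and Z5. Deviations of same-lettered Z9 and Empty wells had correlations across genes of 0.0388, 0.0695 and -0.101, those of Z9 and Z2 wells 0.173, 0.0100 and -0.0549, and those of Z9 and Z5 wells 0.124, 0.0599 and 0.0926. Differently lettered wells gave -0.153 to 0.116 with Empty, -0.151 to 0.150 with Z2 and -0.123 to 0.0392 with Z5. For Z5 each same-lettered value was above that range. The labels do not say that a letter marks a shared day or batch, and the main fit did not pair the wells. Whether a letter marks a shared effect was not tested. Genes separating Z9 from every line were 57 higher and 143 lower with DESeq2 and 47 and 139 with the block. The causes of these changes were not tested. Genes with few counts are limited by depth.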

Other observations

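Called genes were spread over the chromosomes. On chromosome 1, 109 of 1508 genes tested were higher and 191 lower in Z9, with a median log2 fold change of -0.03. In bins of 5 Mb with at least 20 genes tested (271 bins), the 10th and 90th percentiles of the bin medians were -0.065 and 0.065. The first 5 Mb of chromosome 19 held 145 genes tested, 4 higher and 52 lower, with a median of -0.17 against Empty, 0.11 against Z2 and 0.02 against Z5. From 25 to 30 Mb on chromosome 15, 22 genes were tested, 6 higher and 0 lower, with a median of 0.36 against Empty, 0.11 against Z2 and 0.07 against Z5. Both bins were picked after their values were seen.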
